A study of Mus musculus with 3 samples.

Results

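Binding of the transcription factor TFAP2A was described at the cadherin and protocadherin genes of mouse melanocytes. The set held 46 of the 21418 protein-coding genes annotated on the autosomes (chromosomes 1 to 19). A gene was included when its symbol was Cdh, Pcdh or Fat followed by digits only, or Dsg or Dsc followed by digits and at most a single letter. The clustered protocadherins (Pcdha, Pcdhb and Pcdhg) were left out. The cells were melan-a, a single immortalized melanocyte line from normal mouse embryonic skin with the genotype Cdkn2a tm1RDp/tm1RDp. They were grown without further treatment in medium with 10% fetal bovine serum, 200 nM of the phorbol ester TPA and 200 pM cholera toxin, and were fixed in 1% formaldehyde for 10 minutes. Chromatin immunoprecipitation followed by sequencing (ChIP-seq) was carried out with an antibody against AP-2alpha (clone 3B5), which is TFAP2A, in 2 independent experiments, and an input sample was sequenced from the same line. The data were a peak list for each ChIP replicate, with 18528 peaks in replicate 1 and 21459 in replicate 2, of which 18151 and 20991 were on the autosomes. No input table was used here, the read depth behind the lists is unknown, and no expression values were among the files, so the melanocyte identity of the line was not checked against marker genes.

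Cadherins are transmembrane proteins whose extracellular repeats bind calcium and join cells to each other. The classical cadherins hold adherens junctions together through catenins and actin, the desmogleins (Dsg) and desmocollins (Dsc) build desmosomes, and the protocadherins and the giant Fat cadherins act in cell sorting, contact signalling and planar polarity. In skin, melanocytes attach to keratinocytes through E-cadherin (Cdh1), and a change from E-cadherin to N-cadherin (Cdh2) is a well known feature of melanoma. TFAP2A binds DNA as a dimer at GC-rich palindromes, written here as GCCNNNGG and read on both strands.

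The 10 strongest TFAP2A peaks shared by the replicates at these genes all lay more than 10 kb from any transcription start site (TSS), as did 75.4% of the 968 peaks of at least that strength on the autosomes. The sequences around 8 summits are given first, each 101 bp long, from the mm9 genome (NCBIM37). A summit is the position of highest signal within a peak, and the values below are fold enrichments over background as deposited. Consensus matches were counted at the summit of replicate 1, and distances are from the most upstream TSS of the gene, unless stated otherwise. The first 5 sequences are those of highest enrichment outside the chromosome whose sequence was not printed. The next shows a Pcdh7 intron with overlapping matches to the consensus, then comes the distal promoter summit of Pcdh7, and last the strongest summit of Cdh1. Capitals mark every match to GCCNNNGG on either strand.
Pcdh7, past the 3′ end (chr5:58535256-58535356, + strand): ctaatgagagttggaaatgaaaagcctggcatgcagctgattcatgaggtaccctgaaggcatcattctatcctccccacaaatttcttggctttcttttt
Cdh10, intron (chr15:18855464-18855564, + strand): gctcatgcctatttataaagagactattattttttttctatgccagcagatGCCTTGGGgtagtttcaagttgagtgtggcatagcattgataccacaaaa
Pcdh7, intron, 375 kb from the TSS (chr5:58484402-58484502, + strand): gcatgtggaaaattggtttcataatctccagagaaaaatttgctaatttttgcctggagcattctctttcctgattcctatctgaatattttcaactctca
Pcdh7, intron, 148 kb from the TSS (chr5:58256807-58256907, + strand): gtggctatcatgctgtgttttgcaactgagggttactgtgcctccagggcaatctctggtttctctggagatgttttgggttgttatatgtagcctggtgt
Fat4, upstream (chr3:38742334-38742434, + strand): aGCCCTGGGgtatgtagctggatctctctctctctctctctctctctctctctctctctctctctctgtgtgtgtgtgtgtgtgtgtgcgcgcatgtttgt
Pcdh7, intron, 308 kb from the TSS (chr5:58417055-58417155, + strand): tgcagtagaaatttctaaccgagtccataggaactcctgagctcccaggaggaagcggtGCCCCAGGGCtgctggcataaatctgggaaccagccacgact
Pcdh7, promoter (chr5:58105461-58105561, + strand): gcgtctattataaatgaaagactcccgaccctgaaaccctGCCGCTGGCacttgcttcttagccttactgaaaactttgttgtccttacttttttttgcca
Cdh1, intron (chr8:109143465-109143565, + strand): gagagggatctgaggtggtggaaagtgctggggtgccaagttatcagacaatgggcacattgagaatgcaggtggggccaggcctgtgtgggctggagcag

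High enrichment was found with and without a consensus match in these examples. The Pcdh7 peak past the 3′ end (44.2 in replicate 1 and 39.9 in replicate 2) held 0 matches within 50 bp of its summit, as did the introns of Pcdh7 at 24.9 and 29.4 and at 24.9 and 28.1. The single match at Cdh10 (42.5 and 40.6) began 1 bp past the summit. The match of the Fat4 window (17.9 and 20.8) began at -49 bp, before a run of CT and GT repeats. The Pcdh7 window 308 kb from the TSS (10.8 and 10.3) and the distal Pcdh7 promoter summit (6.78 and 7.68) each held 2 overlapping matches. The Cdh1 intron (11.4 and 10.7) held 0.

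Few of the 46 genes had a TFAP2A summit at a promoter. The promoter window began 5 kb before each annotated TSS and ended 1 kb past it. In replicate 1 there were 3 (6.52%), against 19% of all protein-coding genes. In replicate 2 there were 4 (8.7%), against 21.4%. The 3 genes found in both lists (6.52%, against 17.5% of all genes) were Pcdh1, Pcdh7 and Cdh2, and the fourth gene, in the replicate 2 list alone, was Pcdh17. No promoter summit was listed in either replicate for Cdh1 or for Cdh3 (P-cadherin). A peak list holds no region under the threshold of the peak caller, so a promoter without a summit is one where none was listed.

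A wider window, the gene body with 50 kb on each side, gave the same order. It held a summit in 18 of the 46 genes in replicate 1 (39.1%), against 62.7% of all genes, and in 22 in replicate 2 (47.8%), against 66%. In both lists there were 18 (39.1%), against 60.6%. Inside the gene body alone the order was the other way round: 12 genes (26.1%) in replicate 1 against 23.1% of all genes, 17 (37%) in replicate 2 against 25.8%, and 12 (26.1%) in both against 21.5%. These genes are long, with a median length of 72.8 kb (4.53 to 1550 kb) against 15.5 kb over all genes. Set beside genes of like length, the cadherin and protocadherin genes had the lower percentage in all 3 classes. For genes under 50 kb the size of the gap in the wide window depended largely on a single locus. In the gene body of these genes, the direction of the gap did too.

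Among genes under 50 kb, 6 of 19 members (31.6%) had a summit in the wide window in both lists, against 57.4% of 16795 genes, and 2 of 19 (10.5%) had one in the gene body, against 13.5%. Of these 19, 8 were neighbouring desmosomal genes (all of that class but Dsg2), which share a stretch without summits. Without them it was 6 of 11 (54.5%) in the window and 2 of 11 (18.2%) in the gene body, the latter above the value of all genes. The 6 included Dsg2, which had summits in both lists only in a block of repeated sequence described below. Leaving out that block lowers the 54.5%. From 50 to 200 kb the window held a summit in 6 of 15 members (40%) against 72.5% of 3714 genes, and the gene body in 4 (26.7%) against 47.7%. Above 200 kb it was 6 of 12 (50%) against 70.6% of 909 genes, and the same 6 genes (Cdh2, Cdh4, Cdh13, Cdh23, Pcdh7 and Pcdh15) had a summit in the gene body, against 62.6%. Promoter summits in both lists were found in 1 of 19 members under 50 kb (15.4% of all genes), in 0 of 15 from 50 to 200 kb (26.2%) and in 2 of 12 above 200 kb (20.7%). Without the 8 desmosomal genes the promoter count under 50 kb was 1 of 11 (9.09%), and over all lengths 18 of 38 (47.4%) had a summit in the wide window. These 18 also included Dsg2, and without the block 17 genes remained. The classes hold 12 to 19 members each, and no test was made of these percentages.

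**Figure D1:**
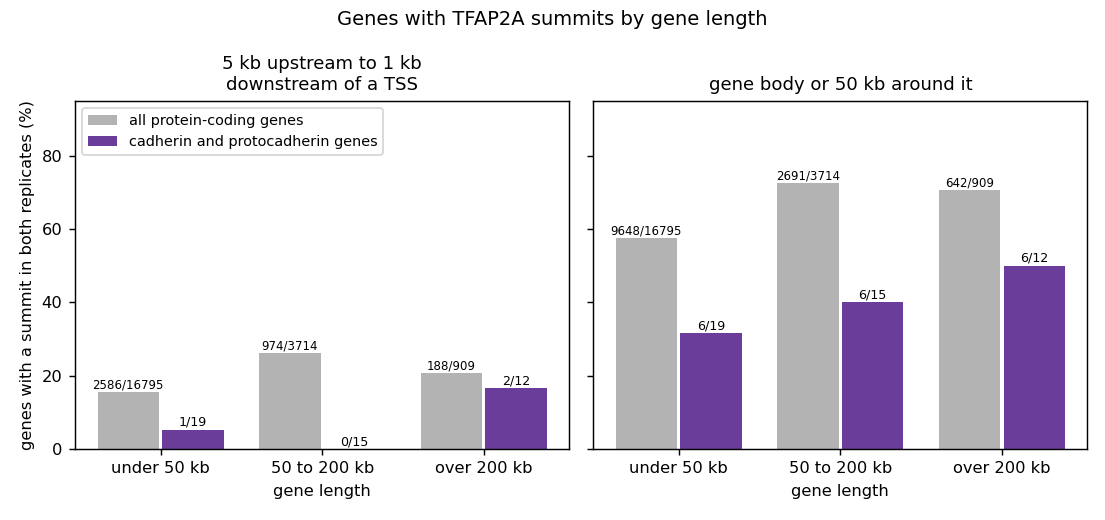
Percentage of genes with a TFAP2A summit in both replicates (y axis) by gene length (x axis), for the promoter window on the left and for the gene body with 50 kb around it on the right, with the counts above the bars. In each length class the bar of the cadherin and protocadherin genes is below that of all protein-coding genes, and the gap is smallest for promoters of genes over 200 kb (16.7% against 20.7%).

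Counted once over their joined windows of 13.5 Mb, the members held 83 summits in replicate 1 and 91 in replicate 2 (mean 87 ± 5.66 SD, n = 2). This came to 6.13 and 6.72 summits per Mb (6.43 ± 0.418), against 10.1 and 11.6 (10.9 ± 1.11) over the joined windows of all protein-coding genes. The ratio of the densities was 0.609 in replicate 1 and 0.578 in replicate 2 (0.593 ± 0.0219). The density of the members was the lower in both replicates. Over gene bodies alone the mean ratio was 0.369, and with 10 kb around them it was 0.393. The replicates read the same loci in the same line, so their SD shows how repeatable the ratio was and not how much sets of genes differ.

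The summits were unevenly spread, as the plot of summits by gene shows. Pcdh7, Cdh2 and Dsg2 together held 44 of the replicate 1 summits and 41 of the replicate 2 summits, and with Pcdh1 51 and 49. At the other end, 24 of the 46 genes (52.2%) had 0 summits in their window in both lists, against 31.9% of all genes. Without the 8 neighbouring desmosomal genes it was 42.1% of 38. A further 4 (8.7%, against 5.43% of all genes) had summits in the replicate 2 list alone, namely Cdh8, Cdh22, Pcdh17 and Fat3.

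**Figure D2:**
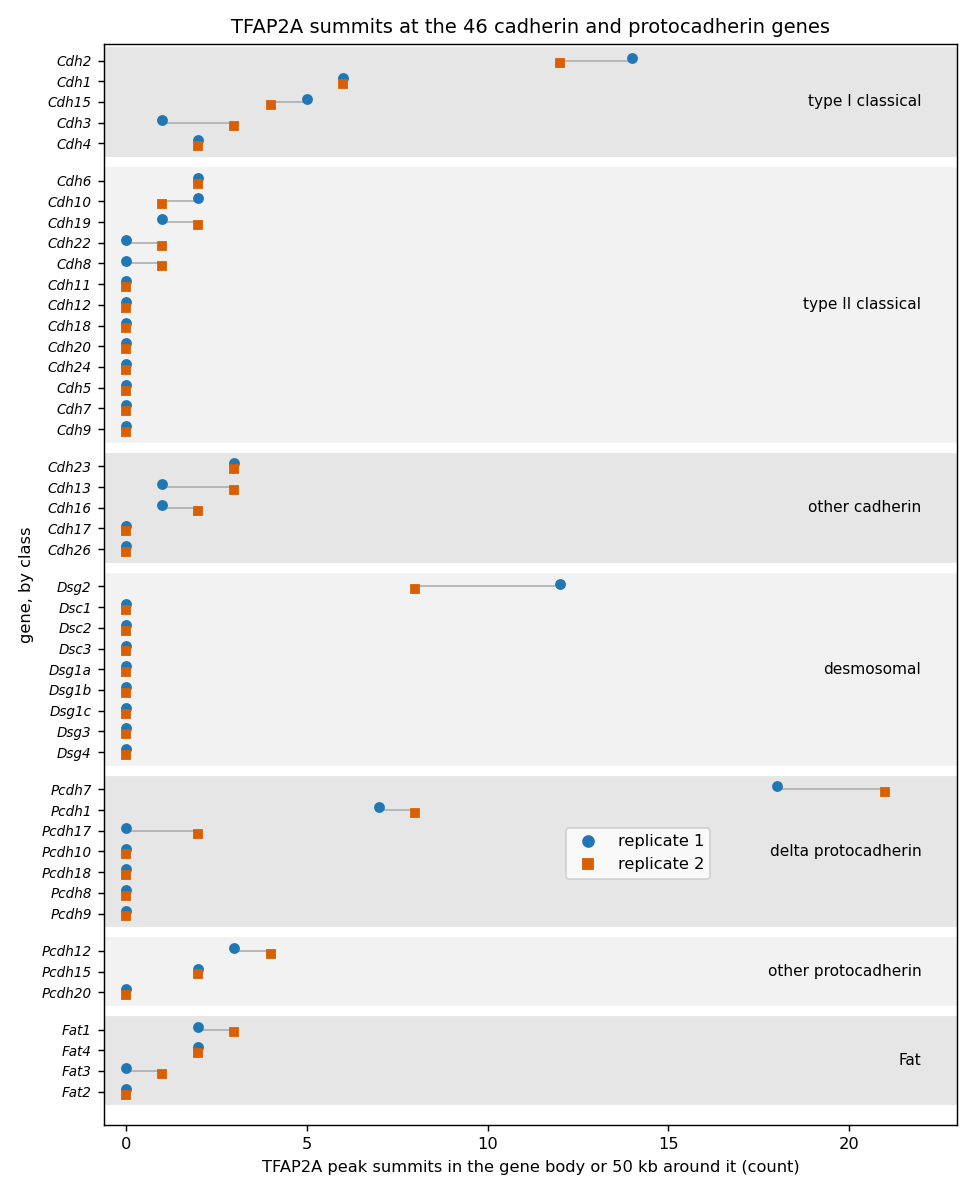
Number of TFAP2A summits in the gene body or 50 kb around it (x axis) for each of the 46 genes (y axis, grouped by class), with circles for replicate 1, squares for replicate 2 and a line joining both. Pcdh7 and Cdh2 stand to the right in both replicates and Dsg2 in replicate 1, while 24 genes lie at 0 in both. In replicate 2 Dsg2 lies level with Pcdh1, at 8.

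The type I classical cadherins are the main adhesion proteins of adherens junctions. All 5 had summits in the window in both lists, against 60.6% of all genes, although the only pair of Cdh3 was one that it shared with Cdh1. The class held 27 different summits in replicate 1 and 26 in replicate 2, and Cdh2 was its only member with any at a promoter. Cdh2 held 14 summits in replicate 1 and 12 in replicate 2, of which 9 and 7 were in the gene body. Peaks of both lists were paired when each was the largest overlap of the other, which gave 11 pairs at Cdh2, 6 of them intronic. Their mean enrichments ran from 3.67 to 22.3 with a median of 5.26. The strongest, on chromosome 18 at 16720216 to 16720875, lay past the 3′ end of the gene, 247 kb from the most upstream TSS and 108 kb from the nearest TSS of Cdh2, at 22.5 and 22.2. The next was in an intron 74.5 kb from the TSS, at 16.8 and 18.8. The Cdh2 promoter summit was weaker, at 5.13 and 5.38. It lay at -2772 bp (negative distances from a TSS are upstream) and held 0 consensus matches.

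Cdh1 had 6 summits in each list, 3 of them in the gene body, and none closer to any of its annotated TSSs than 15.5 kb in replicate 1 and 11.6 kb in replicate 2. Its 5 pairs had a median mean enrichment of 6.55 (4.36 to 11.1), and 3 of them held the consensus at the replicate 1 summit and 2 at the replicate 2 summit. The strongest was in an intron 16.3 kb from the most upstream TSS (chr8:109143146-109143848). A weaker intronic pair 34.2 kb from the TSS had enrichments of 4.53 and 7.52. Of the others, the pairs 98.2 and 102 kb from the Cdh1 TSS (5.34 and 8.02, 6.38 and 6.73) were nearest to the TSS of another gene, Tmco7. The last, at -24.4 kb from the Cdh1 TSS with 3.15 and 5.57, also fell in the window of the neighbouring Cdh3 and was the only pair there. Cdh3 otherwise had 2 summits in the replicate 2 list alone, at 3.42 and 5.26. Cdh15 (M-cadherin, of muscle) had 5 summits in replicate 1 and 4 in replicate 2, none in the gene body, the strongest at -29.7 kb with 9.81 and 8.04. Cdh4 (R-cadherin) had 2 in each list, with a single pair at 5.80 and 5.63.

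Of the 13 type II classical cadherins, 8 had no summit in either list, against 31.9% of all genes. Their median length was 152 kb, against 66.9 kb for type I, and the classes were not compared by a test. These were Cdh5 (VE-cadherin, of endothelium), Cdh7, Cdh9, Cdh11, Cdh12, Cdh18, Cdh20 and Cdh24. The other 5 together held 5 summits in replicate 1 and 7 in replicate 2, and only Cdh6, Cdh10 and Cdh19 had any in both lists. A single intronic peak set Cdh10, a cadherin of the nervous system, apart. It lay at chr15:18855007-18856238, 107 kb from the TSS, and its mean enrichment ranked 9 among the 15732 pairs of the autosomes. It was also the only Cdh10 pair, since the other summit in replicate 1, at 3.81, had no partner. Cdh6 (K-cadherin) had 2 pairs, at 5.77 and 5.00 and at 4.36 and 4.19. Cdh19, a cadherin of the neural crest lineage, had a single pair at -36.0 kb with 6.36 and 6.67. Among the summits of a single list, the one of Cdh8 in replicate 2 stood out at 11.3, at -45.8 kb from the TSS, whereas that of Cdh22 was at 3.38.

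Of the remaining cadherins, Cdh13 (T-cadherin, held to the membrane by a lipid anchor) had an intronic pair 256 kb from the TSS at 11.4 and 15.7, and 2 further intronic summits in replicate 2 alone. Cdh23 and Pcdh15 form the tip links of inner ear hair cells. Cdh23 had 3 summits in each list, with pairs at 6.57 and 9.60 and at 6.36 and 5.74. The stronger of these lay past its 3′ end, at -4897 bp from a TSS of Psap. Pcdh15, the longest of the genes, had a pair at -39.3 kb with 13.2 and 11.6 and a pair in an exon at 5.23 and 6.27. The kidney cadherin Cdh16 had a single pair, at 3.09 and 3.51, which was at -210 bp from a TSS of Pdp2. Cdh17 and Cdh26 had none.

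Among the protocadherins, Pcdh7 carried more summits than any other of the 46 genes, with 18 in replicate 1 and 21 in replicate 2, of which 12 and 14 were in the gene body. That was 35.2 and 41.1 per Mb of its window, below Pcdh1 (55.5 and 63.4) and Dsg2 (81.9 and 54.6) in both lists and beside 43.7 and 37.5 for Cdh2. It lies at chr5:58109260-58520590 on the + strand and is 411 kb long. There were 18 pairs, 12 of them intronic, with mean enrichments from 3.01 to 42.0 and a median of 7.96. The strongest, at chr5:58534651-58535868 and 426 kb from the TSS, ranked 7 of 15732. Intronic pairs 375 and 148 kb from the TSS ranked 106 and 117. A pair 436 kb from the TSS was unlike in the replicates, at 13.0 and 22.6, while intronic pairs at 14.5 and 17.4 and at 13.3 and 17.3 were closer. The pair farthest from the TSS, at 455 kb, differed most as a ratio, at 4.89 and 12.1. The promoter of Pcdh7 held 2 summits in each list, at -3749 bp (6.78 and 7.68, with 2 overlapping consensus matches) and at -513 bp (5.77 and 6.24, with 0). Both were weaker than the pairs ranked 7, 106 and 117.

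Pcdh1, the shortest gene with promoter summits, at 26.1 kb, had another layout. It held 7 summits in replicate 1 and 8 in replicate 2, and 4 and 3 of these were in its promoter window. The strongest promoter pair lay at -4691 bp, with enrichments of 14.3 and 10.1 and 3 consensus matches in replicate 1 and 2 in replicate 2. The next were at -1591 bp (6.63 and 5.64, with 0 matches) and at -464 bp (5.17 and 5.90, with 2). The promoter summit found in replicate 1 alone was near an internal TSS, at 3.16. An intronic pair at 9.82 and 8.58 also held 3 matches. Pcdh17 had 2 summits in the replicate 2 list alone, at 4.52 in the promoter and at 4.67 in an intron. Pcdh8, Pcdh9, Pcdh10 and Pcdh18 of the same delta class had none, nor did Pcdh20. Pcdh12, an endothelial protocadherin, had 3 and 4 summits, with an intronic pair at 13.9 and 15.6. Its other 2 pairs were in the promoter window of the neighbouring gene Rnf14, at 142 and -4639 bp from a TSS.

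**Figure D3:**
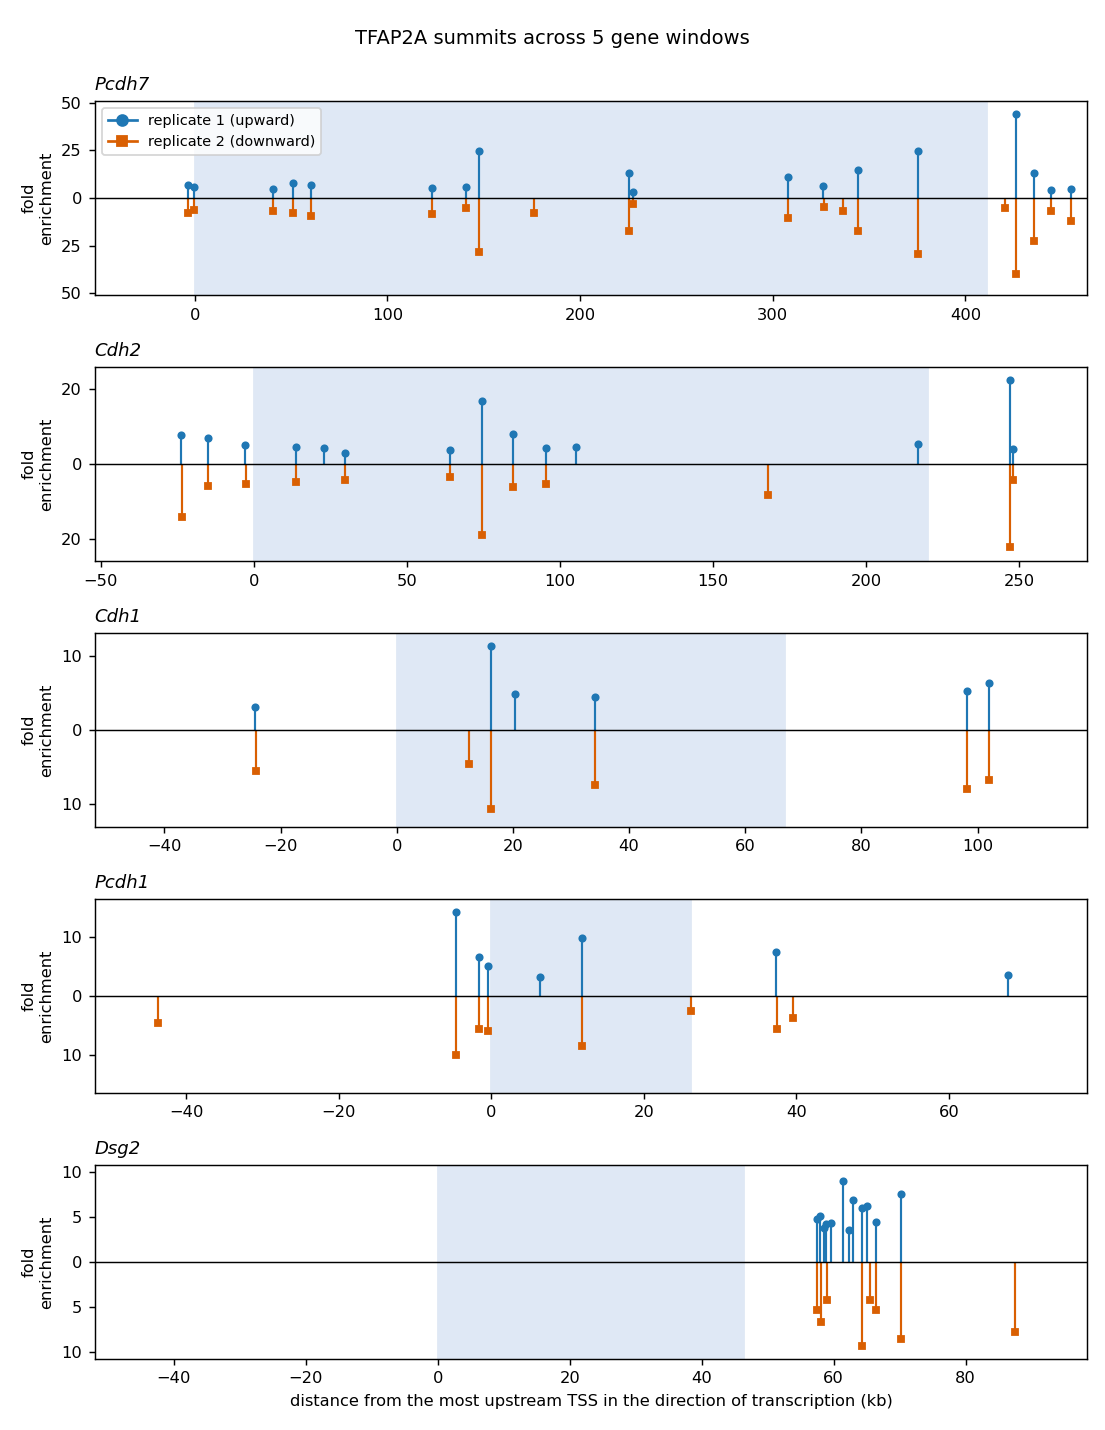
Fold enrichment of every TFAP2A summit (y axis, replicate 1 upward and replicate 2 downward) by distance from the most upstream TSS in the direction of transcription (x axis, kb), for Pcdh7, Cdh2, Cdh1, Pcdh1 and Dsg2, with the gene body shaded. The tallest Pcdh7 and Cdh2 peaks lie past the 3′ end, Pcdh1 has its tallest peak just upstream of the TSS, and the Dsg2 summits sit close together outside the gene.

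Of the Fat cadherins, which are very large adhesion proteins that act with Dachsous cadherins in planar polarity, Fat4 had 2 pairs upstream of the gene. They were at -43.5 kb (17.9 and 20.8, chr3:38741976-38742793) and -36.1 kb (10.7 and 10.0) from the TSS. Fat1 had 2 pairs, in an intron at 5.10 and 5.99 and upstream at 3.61 and 5.15. Fat3 had a single summit, in replicate 2 alone at 6.57, and Fat2 had none.

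The desmosomal genes had next to no TFAP2A summits apart from those beside Dsg2. Dsc1, Dsc2, Dsc3, Dsg1a, Dsg1b, Dsg1c, Dsg3 and Dsg4, which form a cluster, all fell in a single stretch without summits, 783 kb long in both replicates. At Dsg2, which closes the cluster, there were 12 summits in replicate 1 and 8 in replicate 2, none in the gene body. All 12 and 7 of the 8 lay in a block of 14.5 kb on chromosome 18 at 20773516 to 20788019, which begins 10.5 kb past the end of the gene and is nearest to the TSS of Ttr. The block was unlike the other sites in sequence. Of its overlapping words of 24 bases, 85.0% occurred more than once within it, whereas windows of that length around the other 61 pairs had a median of 0.718% and a highest value of 4.06%. It held 1132 consensus matches, or 78.0 per kb, against a median of 1.24 and a highest value of 3.65 per kb at the other pairs. The peaks in it were broad, covering 77.7% of the block in replicate 1 and 92.5% in replicate 2, with enrichments of 3.52 to 9.07 and 4.27 to 9.40. The part that read placement in repeated sequence had in these peaks was not tested. Without the block, Dsg2 had only a summit in replicate 2, at 7.79, the genes with a summit in both lists became 17, and the ratio of densities became 0.527.

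Several genes without summits lay in long stretches where none was listed. Cdh12 and Cdh18 shared a stretch of 6489 kb in replicate 1 and 6293 kb in replicate 2. Pcdh9 and Pcdh10 lay in stretches of 3067 and 3121 kb in both replicates, and Cdh9 in one of 3518 and 2828 kb. Over the 24 genes without summits the median distance from any TSS of the gene to the nearest summit was 222 kb in replicate 1 and 239 kb in replicate 2, and the shortest was 61.5 kb, for Cdh24. These distances exceed 50 kb by definition, since the 24 genes had no summit within 50 kb. No such value was taken over other genes without summits. Over all 46 genes the median was 111 and 82.0 kb, against 34.2 and 28.7 kb over all protein-coding genes.

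The peaks that were present had median enrichments and an agreement between replicates near those of the rest of the lists. Of the 83 replicate 1 peaks, 73 (88.0%, exact 95% interval 79.0 to 94.1%) had a partner in replicate 2 that shared 1 bp or more with them, against 87.0% of all autosomal peaks. Of the 91 replicate 2 peaks, 67 did so (73.6%, 63.3 to 82.3%), against 76.0%. These intervals cover counting error only. The median enrichment was 5.51 in replicate 1, against 5.53 over all peaks, and 6.10 in replicate 2, against 5.72. Among the 67 pairs, 66 had enrichments within 2-fold of each other, the enrichment in replicate 2 divided by that in replicate 1 had a median of 1.10, and the summits were a median of 23 bp apart. Across these pairs, which are not independent replicates, Spearman's rho of the enrichments was 0.853. The median of the pair means was 6.36, against 6.20 over all 15732 pairs, and 8 of the 67 (11.9%) were above 16.4, the value that the top 5% of all pairs exceed.

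**Figure D4:**
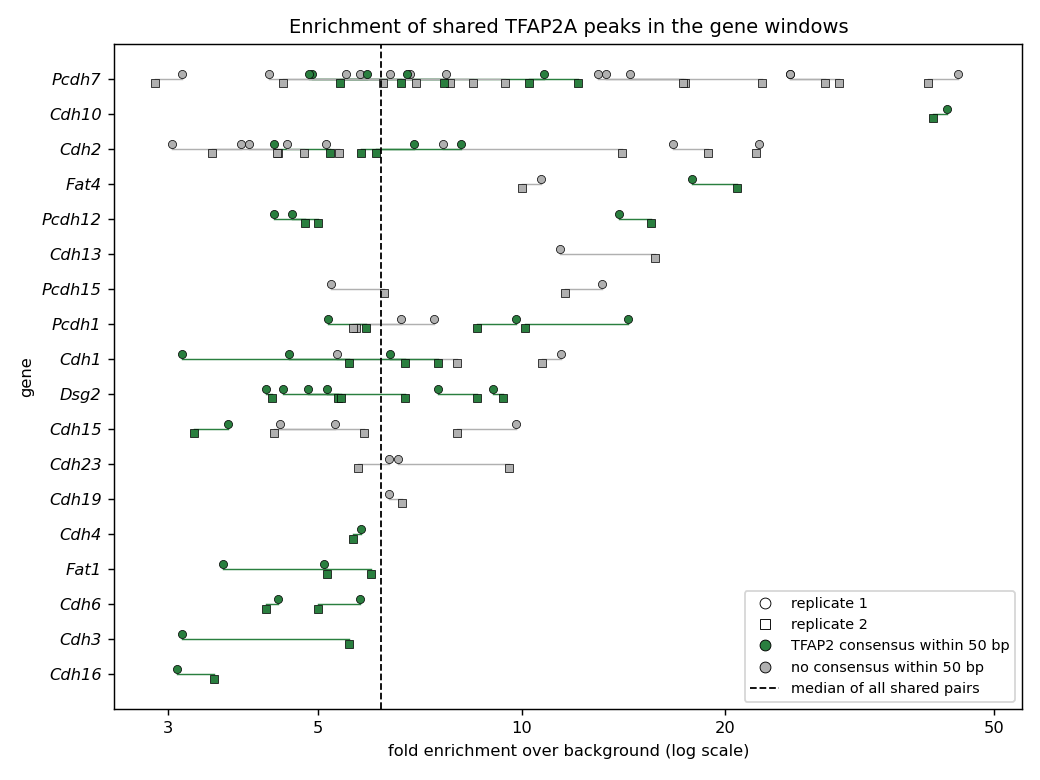
Fold enrichment (x axis, log scale) of each shared TFAP2A peak in replicate 1 (circles) and replicate 2 (squares), joined by a line, for the 18 genes with pairs (y axis), in green where the consensus lies within 50 bp of the replicate 1 summit. Most pairs lie around the dashed line, the median of 6.20 over all pairs, and the pairs above 20 in both replicates belong to Pcdh7, Cdh10 and Cdh2.

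Relative to the gene in whose window they fell, 28 of the 67 pairs were in introns, 1 in an exon, 18 upstream and 20 past the 3′ end of the gene. Only 6 were in the promoter window of a member, and their median enrichment of 6.07 was close to the 6.52 of the others. From the nearest TSS of that gene, 58 of the 67 lay more than 10 kb away and 19 more than 100 kb. Taken against every protein-coding gene, 10 of the 67 pairs (14.9%) were in a promoter window, against 25.7% of all 15732 pairs, and 36 (53.7%) were in a gene body, against 54.4%. More than 10 kb from any TSS were 79.1% of them, against 57.5% of all pairs, and more than 100 kb 26.9%, against 12.4%. Of the 10 strongest pairs 6 were at Pcdh7, and 0 were in any promoter window, against 9.81% of the 968 pairs of the autosomes with a mean enrichment of at least 15.3, the lowest of the 10. Of the 10, 8 were more than 100 kb from any TSS, against 21.3% of the 968. Of the 10 pairs in a promoter window of any gene, 4 were in that of a gene outside the family, as given above for Pdp2, Psap and Rnf14. The nearest TSS belonged to a member for 62 of the 83 summits in replicate 1 and 68 of the 91 in replicate 2.

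The consensus GCCNNNGG was found within 50 bp of the replicate 1 summit in 38 of the 73 shared peaks (52.1%, 40.0 to 63.9%), against 57.1% of all 15797 shared peaks. In the flanks, windows of equal length shifted by 400 bp both ways, it was found in 28.1% at the members and in 15.3% over all shared peaks. The repeat block beside Dsg2 accounted for 12 of the 73. Without it, 26 of 61 (42.6%, 30.0 to 55.9%) held the consensus, with 13.9% in the flanks. The full palindrome GCCNNNGGC was present in 9 of these 61 (14.8%), against 19.1% of all shared peaks. A spacing of 4 bases between the GCC and GG arms, looked for after the sequences had been seen, was present in 27 of the 61 (44.3%, 31.5 to 57.6%), against 52.5% of all shared peaks and flanks of 13.1 and 13.8%. A spacing of 2 was present in 17 of the 61 (27.9%), against 37.3% of all shared peaks and flanks of 16.4 and 18.4%. The consensus and the spacing of 4 can match the same letters.

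The counts for single genes depended on which summit was read. At Pcdh7 the consensus was present in 5 of 18 pairs at the replicate 1 summits and in 7 at the replicate 2 summits, and it or the spacing of 4 in 9 and 11. Of the 10 strongest member pairs 2 held the consensus at the replicate 1 summit and 4 at the replicate 2 summit, and 5 and 7 held either form. Over the 968 pairs of the autosomes of that strength or above, the consensus was present in 61.3% at the replicate 1 summits and 64.4% at the replicate 2 summits. Over all 67 member pairs it was present in 32 and 36. Motifs of other factors, all read on both strands, were present in few of the 73 peaks. The AP-1 motif TGANTCA was found in 5 (6.85%, against 8.29% of all shared peaks), the SOX motif ACAANGG in 4 (5.48%, against 7.08%), and the E-box CACGTG and the M-box TCATGTG of MITF in 1 each (1.37%, against 1.79 and 2.01%). A match is a description of the sequence and does not show that a factor was bound.

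The promoter sequences of the members were not poor in the consensus. From 250 bp upstream to 50 bp downstream of the most upstream TSS, GCCNNNGG was present in 29 of the 46 genes (63.0%), against 58.7% of all genes. It was present in 26 of the 42 members without a promoter summit in either list (61.9%). The sequence read was much shorter than the promoter window used for summits. None of the 6 promoter pairs of the members had its replicate 1 summit within it. Over all genes it was found in 74.2% of the 3748 with a promoter summit in both lists and in 54.3% of those with none. The median GC content of these sequences was 54.2% in the members and 55.3% in all genes. The median number of CpG dinucleotides was lower in the members, at 7 against 12, and among genes without a promoter summit in either list it was 5.5 in members against 9. The part of CpG content in the number of promoter summits was not tested.

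The listed partners of these proteins had TFAP2A summits nearby in a larger share of genes than the 46 members. A list of 17 catenins, desmosomal plaque proteins, actin linkers and Fat partners was used, of which 16 were in the annotation. Of these 16, 15 had a summit in the wide window in both lists, 10 in the gene body and 4 at the promoter (60.6, 21.5 and 17.5% of all genes). Without Dchs1, itself a cadherin, and Fjx1, which are not cytoplasmic, these were 13, 9 and 4 of 14. The promoters were those of Ctnnd1 (p120-catenin, which binds the inner side of classical cadherins), with 1 summit in each list, Mllt4 (afadin) and Vcl (vinculin), both of which link junctions to actin, with 2 in each, and Pkp4 (plakophilin), with 1 in each. Dchs1, the Dachsous partner of Fat4, had a promoter summit in replicate 1 alone, and Pkp2 and Fjx1 had 1 in replicate 2 alone. Vcl had 9 and 8 summits in its window and Ctnna1 (alpha-catenin) 6 and 6, while Ctnnb1 (beta-catenin) had 2 and 3 and Jup (plakoglobin) 1 and 1. Dsp (desmoplakin), which anchors desmosomes to keratin, was the exception, with 0 in both lists. The list is short and was compared with the members and with all genes without a test, and gene length was not matched.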

How the data were processed

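TFAP2A ChIP-seq of melan-a cells was analysed from the peak list that the authors deposited for each of 2 ChIP replicates, called separately for each replicate. The submitters' processing notes name BWA, MACS 1.4.2 and mm9, without role or order. The lists hold −log10 q values, which that version of MACS does not write, so the caller version behind the deposited enrichments is unsettled. Each deposited peak has a fold enrichment over background (a ratio), a −log10 p, a −log10 q, a score and a summit offset. Truncating 10 times the −log10 p gave the deposited score, which was not used. The lowest deposited −log10 p was 5.05 and 5.06 and the lowest −log10 q 2.64 and 2.64 in replicates 1 and 2, and regions under these values are not listed. The read depth is unknown, so the higher number of peaks in replicate 2 cannot be told apart from a difference in depth.

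Summits were assigned with Python 3.11.15 and pandas 2.3.3 to protein-coding genes of the GENCODE mouse version 1 annotation (Ensembl release 65) on mm9, with gene length taken over the annotated gene. Sequences were read with pysam 0.24.0, and none from chromosome 18 is printed. Peaks overlapping by at least 1 bp were called shared, as in the study's methods. Percentages have exact Clopper-Pearson 95% intervals (scipy 1.17.1). With 2 libraries of 1 condition no significance test was made, and percentages over all genes or all shared peaks stand beside those of the members. The counting steps were checked on simulated data.

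The members, their classes and the list of partner genes were chosen with earlier results of these data known. Values are given for members with promoter summits, the 10 with the most summits, those with the 10 strongest pairs, and Cdh1, Cdh2 and Cdh3, and the other members are given by counts or by their pairs. The sequences of Cdh1 and of the Pcdh7 intron with overlapping matches were chosen after their values were seen. Alternatives were other peak thresholds, windows, TSS sets, overlap rules, motif forms and single replicates, and, chosen after seeing the data, leaving out the repeat block beside Dsg2, leaving out the 8 other desmosomal genes, and reading the consensus at replicate 2 summits.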

Additional observations from a re-analysis of the deposited data

How the results depend on the processing

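The count of genes with a promoter summit in both lists (3) was 2 to 4, and that of genes with a summit in the wide window (18) was 12 to 25, under every alternative run. The lower promoter count came from the upper 50% of peaks by enrichment, which left out Cdh2, and from promoters narrowed to 1 kb both ways. The mean number of summits (87) became 45.5 with the upper 50% of peaks, 39.5 in gene bodies alone and 48.5 with 10 kb around them, as fewer peaks or less sequence entered. The ratio of densities (0.593) became 0.647, 0.369 and 0.393 in the same order, and 0.639 with 100 kb around the gene body. It was 0.527 without the repeat block beside Dsg2 and 0.619 without the 8 neighbouring desmosomal genes but with the block. Throughout, it was below that of all genes. Over the replicate lists taken singly it was 0.578 and 0.609. The percentage of shared peaks (88.0%) became 75.9% with a reciprocal overlap of 50%, 73.5% with summits within 100 bp and 73.6% counted from replicate 2. The percentage with the consensus (52.1%) became 20.5% for GCCNNNGGC, and the count of the 10 strongest pairs with it went from 2 to 4 at replicate 2 summits. The other 38 recomputed values moved by less than their spread or within 1.5 times. No paired analysis was possible because the results come from no test. The lists hold peaks of 2 cultures of a single line, no input signal and no read counts, so weak binding and missing reads cannot be told apart.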
